A study of Homo sapiens with 6 samples.

Results

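The 9 genes HNRNPA1, HNRNPA2B1, HNRNPC, HNRNPD, HNRNPH1, HNRNPK, HNRNPL, HNRNPM and HNRNPU encode abundant heterogeneous nuclear ribonucleoproteins (hnRNPs). They were chosen by name, and their transcripts were found by joining the table of transcript abundances to the gene symbols in the authors' deposited comparison table. This gave 9 of 63677 genes and 169 of 215170 transcripts. Of these transcripts, 12 were listed at 0 in all 6 libraries and 118 had a mean of at least 1 TPM (an abundance corrected for transcript length that adds up to the same total in every library). HNRNPH1 had the most listed transcripts, 50, followed by HNRNPC with 34, HNRNPM with 16, HNRNPA1, HNRNPD and HNRNPL with 14 each, HNRNPK with 12, HNRNPU with 8 and HNRNPA2B1 with 7.

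The study sequenced total RNA from KMS27, an established human multiple myeloma cell line, after ribosomal RNA had been depleted. One group is 3 libraries of cells with HA-TAZ overexpression, here HA-TAZ 1 to 3, in which TAZ (gene WWTR1), a transcriptional coactivator of the Hippo pathway, carries an HA peptide tag. The other is 3 libraries of wild type cells, here control a, b and c; these columns are named scr in the table, a name that no label explains, and were taken as wild type by elimination. The labels give no time, dose, promoter or clone for the HA-TAZ cells, and the wild type sample titles contain HA as well. Libraries were made in triplicate, and no label states that they came from separate cultures, so p-values measure the spread between these libraries, which may be technical.

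An hnRNP binds nascent RNA in the nucleus, packages it, and helps to decide which exons are kept, where the transcript ends and when it is exported. Many hnRNP genes are themselves alternatively spliced, and several limit their own output by making transcripts that keep an intron or gain a premature stop codon. Nonsense-mediated decay (NMD) is the cytoplasmic pathway that degrades transcripts of the latter kind. In plasma cells, which devote much of their RNA to secreted immunoglobulin, hnRNPs take part in the processing of immunoglobulin and other transcripts.

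Shown here for 4 of the genes is an optional coding segment that separates protein isoforms and could be read from complete transcript models. These segments are shown because the share of each gene's RNA that includes them is one of the measurements. They are the longest in-frame segment of each gene among 8 optional segments found in their models, a choice made after their values had been seen. Capitals mark the optional segment, and the 20 lower-case bases on each side are the flanking transcript sequence of the GENCODE 29 model named, 5′ to 3′. Positions are on GRCh38, whereas the deposited values are on GRCh37.

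In HNRNPA2B1 the segment is exon 2 of 12 of HNRNPA2B1-201 (chr7:26197831-26197866, minus strand, 36 bases, coding). With it the gene makes B1, and without it A2.
HNRNPA2B1: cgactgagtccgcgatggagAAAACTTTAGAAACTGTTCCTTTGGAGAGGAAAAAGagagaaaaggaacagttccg

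In HNRNPC it is part of exon 4 of 9 of HNRNPC-211 (chr14:21230958-21230996, minus strand, 39 bases, coding). With it the gene makes C2, and without it C1.
HNRNPC: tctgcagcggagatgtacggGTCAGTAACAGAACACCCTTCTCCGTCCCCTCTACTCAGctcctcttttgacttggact

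In HNRNPD, also called AUF1, it is exon 7 of 9 of HNRNPD-201 (chr4:82356537-82356683, minus strand, 147 bases, coding), which separates the larger from the smaller AUF1 isoforms.
HNRNPD: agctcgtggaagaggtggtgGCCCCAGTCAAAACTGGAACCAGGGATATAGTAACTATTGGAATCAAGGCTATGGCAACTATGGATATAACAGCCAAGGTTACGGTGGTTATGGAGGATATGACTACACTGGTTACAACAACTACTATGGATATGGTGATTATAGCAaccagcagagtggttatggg

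In HNRNPM it is part of exon 6 of 16 of HNRNPM-201 (chr19:8465363-8465479, plus strand, 117 bases, coding).
HNRNPM: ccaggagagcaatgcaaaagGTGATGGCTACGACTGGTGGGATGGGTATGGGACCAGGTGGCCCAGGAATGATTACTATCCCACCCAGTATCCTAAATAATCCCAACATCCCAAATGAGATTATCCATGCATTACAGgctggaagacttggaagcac

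The labels were first checked on the targeted gene and on cell type markers. HA-TAZ libraries held 297 ± 7.42 TPM of WWTR1, against 2.20 ± 0.497 TPM in the controls (SD over 3 libraries each). All 7 plasma cell markers were detected, and summed to between 542 and 592 TPM in HA-TAZ libraries and between 649 and 738 TPM in controls. Of these, CD38 was called lower after rescaling of the libraries (log2 fold change −0.61, limma adjusted p = 0.0226) and also with factors from protein-coding genes, whereas with TPM as deposited CD38, MZB1, TNFRSF17 and XBP1 were. The summed markers of B cells, T cells, myeloid cells, epithelium, fibroblasts and erythroid cells each stayed at or below 4.89 TPM in every library. In bulk RNA such as this, a change in the cells that express a gene and a change in RNA per cell cannot be told apart. TPM carries no read depth, and the depth of each library was unknown.

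The first question was whether the hnRNP genes as a whole were at another level in HA-TAZ cells. No gene of the 9 passed the test, and as deposited the TPM of all 9 overlapped between the groups. As a share of the library, 8 of the 9 had a lower mean in HA-TAZ, and after rescaling of the libraries to each other 8 of the 9 had a higher mean. The direction for the family therefore depended on the scaling. The order of the 9 fold changes was the same under the 3 scalings tried. Each scaling divides a library by the same factor for every gene, so this order could hardly differ.

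HNRNPA1, which represses exons and shuttles between nucleus and cytoplasm, was the most abundant, with 599, 695 and 570 TPM in HA-TAZ 1 to 3 against 836, 781 and 661 TPM in control a to c. HNRNPH1, which binds runs of guanines, was at 494, 570 and 465 TPM against 693, 616 and 549 TPM. HNRNPC, which coats uridine tracts and masks cryptic exons, was at 457, 498 and 432 TPM against 611, 511 and 473 TPM. In each of these 3 genes control a was the highest library and HA-TAZ 2 the highest of its group.

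HNRNPA2B1, a reader of purine-rich sites, was at 440, 498 and 438 TPM against 570, 549 and 462 TPM. HNRNPK, which binds cytidine-rich sequence, was at 359, 397 and 339 TPM against 433, 403 and 373 TPM. HNRNPU, a nuclear matrix protein that binds chromatin-associated RNA, was at 281, 313 and 286 TPM against 352, 328 and 305 TPM. In all 3 genes the highest HA-TAZ library lay above the lowest control library.

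HNRNPL, a binder of CA repeats that regulates CD45 splicing in lymphocytes, was at 190, 209 and 193 TPM against 190, 200 and 199 TPM, with ranges that overlapped almost fully. HNRNPD, which binds AU-rich elements and affects mRNA decay, was at 185, 210 and 188 TPM against 256, 235 and 201 TPM. HNRNPM, a binder of GU-rich sequence, was the least abundant at 83.3, 101 and 74.8 TPM against 121, 125 and 88.4 TPM. The genes are given in the order of their HA-TAZ means. In control libraries every HNRNPD value lay above every HNRNPL value. Neighbours in this order whose ranges overlapped were HNRNPA1 and HNRNPH1 (in control libraries), HNRNPH1 and HNRNPC, HNRNPC and HNRNPA2B1, and HNRNPL and HNRNPD (in HA-TAZ libraries).

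For the test each library was divided by a median-of-ratios factor, which was 0.866 to 0.967 in HA-TAZ and 1.06 to 1.21 in control libraries. On this scale 3 genes did not overlap between the groups. HNRNPL stood at 220, 216 and 217 scaled TPM in HA-TAZ libraries and at 157, 183 and 188 in control libraries. HNRNPU stood at 324, 324 and 321 against 291, 301 and 288 scaled TPM. HNRNPK stood at 414, 410 and 381 against 358, 369 and 353 scaled TPM. In these 3 genes every HA-TAZ library was above every control library, as it was for 20.2% of all genes tested.

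**Figure D1:**
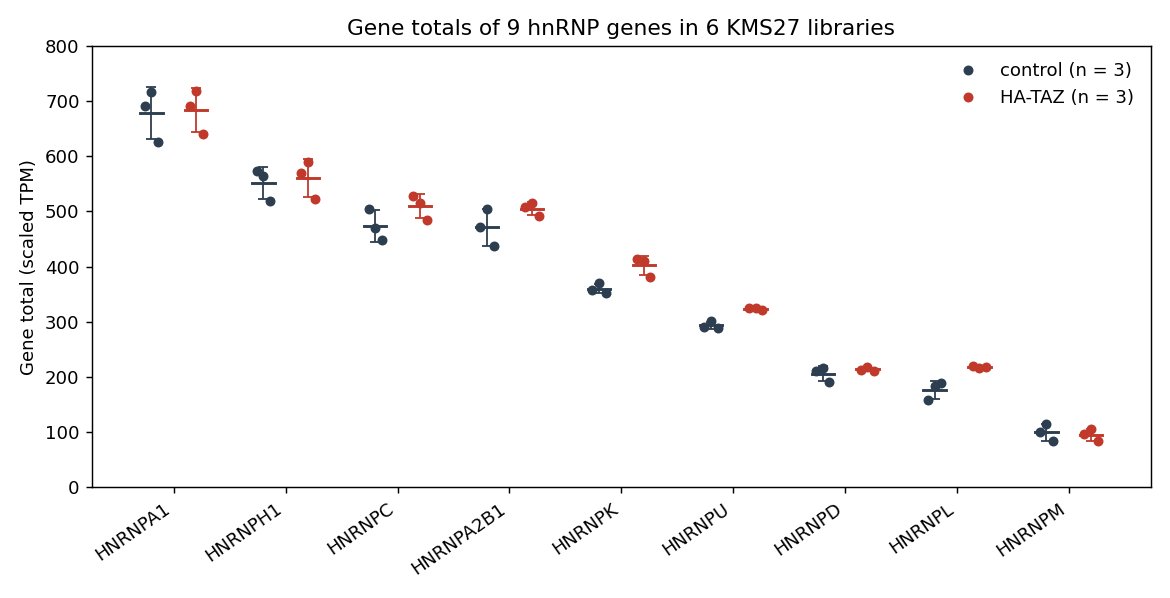
Gene totals in scaled TPM (vertical axis) of the 9 hnRNP genes, with 1 point for each library, a bar for the mean and error lines of 1 SD (n = 3 in each group). HNRNPK, HNRNPL and HNRNPU show no overlap between HA-TAZ and control libraries, whereas the points of the other 6 genes overlap.

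In limma on log2(scaled TPM + 1), 0 of the 9 gene totals passed an adjusted p of 0.05, against 7.29% of 22651 genes tested. An unadjusted p under 0.05 was found for 3 of 9, against 30.7% of all genes. HNRNPL had a log2 fold change of 0.31 (SE 0.07, limma adjusted p = 0.0616), which is 1.24-fold with a 95% interval of 1.09 to 1.40. HNRNPU had 0.14 (SE 0.04, adjusted p = 0.0806) and HNRNPK 0.16 (SE 0.05, adjusted p = 0.104). When only genes with a mean of at least 5 TPM were tested, HNRNPL passed (adjusted p = 0.0432), as did 17.8% of the 12613 genes then tested.

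The other 6 totals had log2 fold changes between −0.06 (HNRNPM) and 0.11 (HNRNPC), with adjusted p-values of 0.314 to 0.922. Their 95% intervals reached at most a 1.21-fold higher level (HNRNPM) and a level 0.759 times the control level (HNRNPM). These intervals hold for the rescaled values only and do not include the differences between scalings given next. HNRNPA1 was at 1.01-fold, with an interval of 0.888 to 1.15. The median of the 9 was 0.10, against −0.03 over all genes and 0.06 over protein-coding genes.

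Scaling moved every one of these values. With TPM as deposited, the median log2 fold change of all genes was −0.27 and that of the 9 genes −0.20, and 8 of the 9 were below 0 with HNRNPL at 0.01. Factors taken from protein-coding genes alone gave medians of −0.09 for all genes and 0.03 for the 9, with 4 of 9 below 0. No hnRNP total was called under either scaling. In the whole table the rescaled fit gave 1057 higher and 595 lower genes, the protein-coding factors 660 and 859, and the deposited TPM 261 and 3068. As a change of scaling shifts all of these genes nearly alike, HNRNPL stayed the highest and HNRNPM the lowest of the 9 under all 3 scalings. The HNRNPM total holds HNRNPM-210, a short coding model at 12.9, 22.2 and 0% of the gene in HA-TAZ libraries. It held 32.8, 35.9 and 13.2% in control libraries, and the HNRNPM total without this transcript was not tested.

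**Figure D2:**
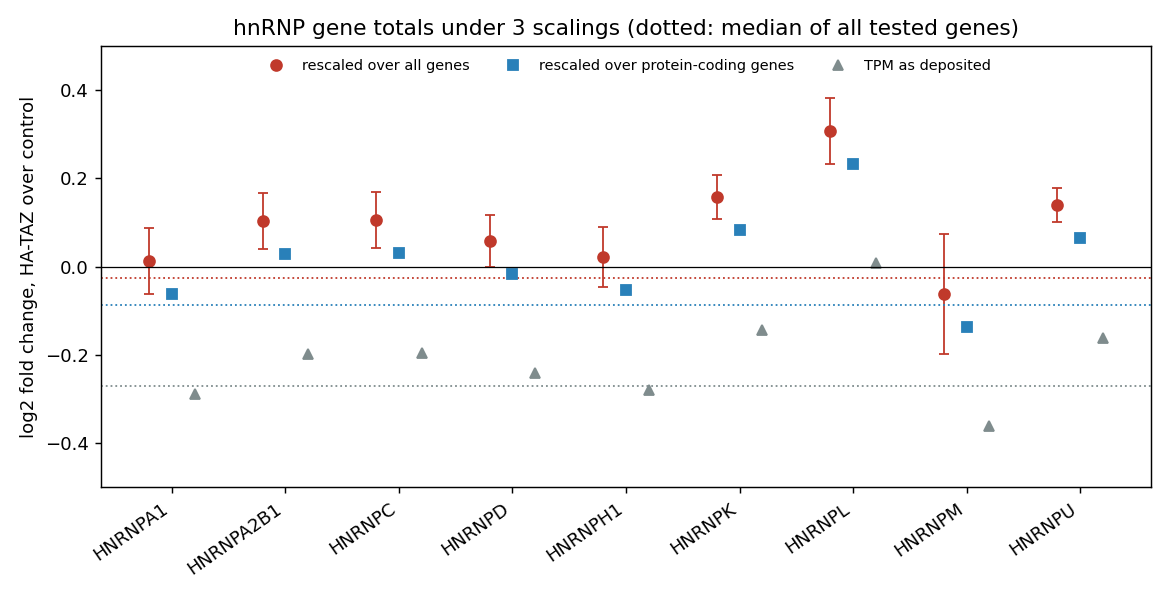
Log2 fold change of each gene total, HA-TAZ over control (vertical axis), under 3 ways to scale the libraries; the error lines on the circles are 1 SE of the limma fit, and dotted lines are the medians of all tested genes under each scaling. The whole set moves from a median of 0.10 to one of −0.20 with TPM as deposited. The 9 genes keep their order because a change of scaling shifts them nearly alike.

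The relatives of these genes were taken from a list of 29 names of hnRNPs and hnRNP-like proteins. HNRNPH2 stands under 2 gene IDs with identical values. Of 26 tested gene IDs, 2 were called higher, against 4.67% of all genes, and none lower, against 2.63%. HNRNPAB, a paralogue of HNRNPD, had a log2 fold change of 0.25 (limma adjusted p = 0.0394), and HNRNPA0 had 0.31 (adjusted p = 0.0497). The family's median stood at 0.11, against −0.03 over all genes. As deposited it was −0.18 and none was called, nor was any called with the protein-coding factors, where 14 were above 0 and 12 below.

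The import and export receptors that carry hnRNPs or mRNA were at a median of 0.18, and 1 of 4 was called higher, against 4.67% of all genes. TNPO2, a transportin that imports HNRNPA1 and its relatives, had a log2 fold change of 0.27 (limma adjusted p = 0.0313). TNPO1, KPNB1 and NXF1 had 0.18, 0.19 and 0.14 (adjusted p = 0.0688, 0.102 and 0.0872). With TPM as deposited all 4 were below 0 and none was called. With the protein-coding factors all 4 were above 0, at a median of 0.11, and none was called. Of 10 NMD factors, 1 was called higher, against 4.67% of all genes, and 1 lower, against 2.63%. SMG8 was the higher one (0.41, limma adjusted p = 0.0302) and the kinase SMG1 the lower (−0.24, adjusted p = 0.0485). The 10 had a median of 0.0060. With the protein-coding factors SMG8 and SMG1 were called again. On the deposited scale, SMG1 and SMG9 were called lower, as were 3068 of all 22651 genes, and no NMD factor was called higher.

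The second question was how each gene divided its RNA among its transcripts. A share of a gene does not depend on the scaling between libraries. HNRNPA2B1 was the most concentrated: HNRNPA2B1-202 (ENST00000356674.7), which encodes A2, held 78.6, 77.6 and 79.1% of its TPM in HA-TAZ and 75.3, 77.0 and 76.9% in control libraries. All 3 HA-TAZ values lay above the control values. Among protein-coding transcripts alone the log2 ratio of HNRNPA2B1-202 had the opposite sign, as it had for other transcripts listed in the last section. The leading HNRNPH1 transcript, ENST00000511300.2, held 24.2 ± 0.314% and 23.2 ± 0.381% (SD, n = 3 each).

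Of the 118 hnRNP transcripts tested for a change of share, 0 passed in limma, against 0.0107% of 46727 transcripts, so this test called almost nothing in the whole data set. An unadjusted p under 0.05 was found for 26, against 19.5% of all transcripts. Of these, 10 were higher in HA-TAZ and 16 lower, against 8.57% and 10.9% of all transcripts. Groups did not overlap for 20 transcripts that were higher and 20 that were lower, against 11.3% and 14.2% of all transcripts.

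Among transcripts with at least 5% of their gene, the lowest unadjusted p was in HNRNPU. HNRNPU-201 (ENST00000283179.9) held 39.2, 38.0 and 40.8% of the gene in HA-TAZ and 27.7, 34.0 and 32.2% in control libraries. All HA-TAZ values lay above all control values (limma log2 ratio to the rest 0.51, SE 0.14, unadjusted p = 0.0070, adjusted p = 0.158). HNRNPU-205 (ENST00000444376.2) held 13.3, 14.2 and 13.1% against 16.1, 16.2 and 15.8%, and HNRNPU-202 (ENST00000366525.3) 13.0, 14.5 and 12.1% against 17.2, 16.6 and 15.7%. Both were lower in every HA-TAZ library. HNRNPU-210 (ENST00000483966.1) overlapped, at 16.3 ± 1.21% and 15.5 ± 4.15%. HNRNPU-207 (ENST00000468690.1) was at 6.79 ± 0.851% and 9.21 ± 0.729%, without overlap, and HNRNPU-209 (ENST00000476241.1) at 5.56 ± 0.212% and 5.16 ± 0.541%. The deposited values imply another length than GENCODE 29 gives for each of the 8 HNRNPU transcripts (for HNRNPU-201, 3702 bases against 3120). Their structure is therefore not described here. Their annotated types rest on models of another length wherever they are used below, in counts, fits and figures.

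In HNRNPC, a transcript that carries the C2 segment did not overlap between the groups. HNRNPC-211 (ENST00000554455.1) held 20.9, 18.7 and 19.3% of the gene in HA-TAZ and 11.9, 15.2 and 18.1% in control libraries, with HA-TAZ higher (log2 ratio 0.47, limma adjusted p = 0.228). Without control a the ratio was 0.29, and leaving out any other library gave 0.41 to 0.64. The leading transcript HNRNPC-205 (ENST00000553300.1), without the segment, was at 44.3 ± 0.890% and 42.9 ± 3.34%. HNRNPC-230 (ENST00000557201.1), which has it, was at 5.21 ± 0.657% and 5.71 ± 1.07%. One library stood apart: the intron-retaining HNRNPC-206 (ENST00000553444.1) held 12.0% of the gene in control a but 1.79% and 1.56% in control b and c and 0.623, 0.768 and 0.840% in HA-TAZ libraries.

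In HNRNPL, HNRNPL-210 (ENST00000600873.1) held 37.5, 35.6 and 39.1% in HA-TAZ and 32.5, 34.6 and 34.9% in control libraries. The intron-retaining HNRNPL-207 (ENST00000598985.1) held 15.0, 16.2 and 13.3% against 22.4, 18.8 and 17.2%. The former was higher and the latter lower in each HA-TAZ library (limma adjusted p = 0.352 and 0.196). HNRNPL-212 (ENST00000601449.1) was at 22.3 ± 0.432% and 21.0 ± 0.253%, and the intron-retaining HNRNPL-211 (ENST00000601047.1) at 4.72 ± 0.501% and 5.80 ± 0.463%.

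HNRNPK-202 (ENST00000360384.5) held 33.8, 34.6 and 35.8% in HA-TAZ and 31.9, 32.7 and 33.0% in control libraries, and HNRNPK-205 (ENST00000376281.4) was at 22.6 ± 1.16% and 20.3 ± 1.23%. The intron-retaining HNRNPK-210 (ENST00000492865.1) held 11.7, 11.1 and 8.01% against 16.1, 13.1 and 11.9%. HNRNPK-210 did not overlap between the groups, with HA-TAZ lower (log2 ratio −0.48, limma adjusted p = 0.248). Without HA-TAZ 3 the ratio was −0.29, and leaving out any other library gave −0.59 to −0.34. The NMD transcript HNRNPK-207 (ENST00000472778.1), the intron-retaining HNRNPK-209 (ENST00000483135.1) and the coding HNRNPK-206 (ENST00000457156.1) overlapped, at means between 6.87 and 9.98% in both groups.

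HNRNPA1 shares overlapped for 6 of its 7 main transcripts. HNRNPA1-202 (ENST00000340913.6) was at 25.8 ± 1.47% in HA-TAZ and 24.2 ± 2.25% in control libraries. HNRNPA1-201 (ENST00000330752.8), a shorter transcript (1294 against 1842 bases), was at 16.8 ± 0.297% and 18.8 ± 2.26%. The coding transcripts ENST00000547276.1, ENST00000550482.1 and ENST00000550994.1 and the intron-retaining HNRNPA1-212 (ENST00000551679.1) had means between 5.79 and 14.2% in both groups. The exception was HNRNPA1-205 (ENST00000547566.1), annotated as an NMD target. It held 6.03, 5.19 and 7.72% in HA-TAZ and 4.39, 4.26 and 5.18% in control libraries, without overlap (log2 ratio 0.45, limma adjusted p = 0.230). Without HA-TAZ 3 the ratio was 0.29, and leaving out any other library gave 0.40 to 0.59.

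HNRNPM-210 (ENST00000598367.1), a short coding model, held 12.9, 22.2 and 0% of the gene in HA-TAZ and 32.8, 35.9 and 13.2% in control libraries. HNRNPM-201 (ENST00000325495.4) held 46.6, 41.4 and 50.0% against 35.6, 33.9 and 44.5%, and HNRNPM-208 (ENST00000597270.1) 12.3, 14.4 and 15.0% against 4.80, 8.36 and 13.0%. All 3 overlapped between the groups, and HNRNPM-202 (ENST00000348943.3) did too. The libraries with the least HNRNPM-210, HA-TAZ 3 and control c, also had the lowest HNRNPM totals of their groups.

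The main HNRNPD transcript, ENST00000543098.1, an ID that GENCODE 29 does not hold, was at 48.6 ± 1.19% and 46.9 ± 0.835%. HNRNPD-208 (ENST00000509263.1), HNRNPD-203 (ENST00000353341.4) and HNRNPD-201 (ENST00000313899.7) were at 20.4, 18.5 and 5.20% in HA-TAZ and 22.7, 17.1 and 5.53% in control libraries, and of these HNRNPD-203 did not overlap. In HNRNPH1, the intron-retaining HNRNPH1-243 (ENST00000522958.1) was at 17.8 ± 1.80% and 21.0 ± 2.12% and HNRNPH1-235 (ENST00000519943.1) at 9.21 ± 0.202% and 10.5 ± 0.863%, both lower in every HA-TAZ library. Another of this type, HNRNPH1-237 (ENST00000520415.1), was higher in every HA-TAZ library, at 5.02 ± 0.114% and 4.22 ± 0.335%. The NMD transcript HNRNPH1-219 (ENST00000512273.1) and the coding HNRNPH1-203 (ENST00000393432.4) overlapped. In HNRNPA2B1 the intron-retaining ENST00000495810.1 and ENST00000463181.1 were at 6.75 and 4.79% against 8.58 and 5.82%, the latter without overlap.

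The tested hnRNP transcripts were then grouped by annotated type. Of 41 intron-retaining transcripts, 2 had a higher and 12 a lower share at an unadjusted p under 0.05, against 1.9% and 16.7% of all 9705 tested transcripts of this type. Of 58 protein-coding transcripts, 7 had a higher and 4 a lower share, against 13.5% and 7.73% of all 22004. In level rather than share, and after rescaling, the median log2 fold change was 0.15 for the protein-coding and −0.02 for the intron-retaining hnRNP transcripts, against 0.10 and −0.10 over all transcripts of these types. No rescaled level of the 118 passed in limma, against 0.534% of 57448 transcripts. An unadjusted p was under 0.05 for 27, against 24.1%, of which 23 were higher and 4 lower, against 13.1% and 11.1%. These counts moved with the scaling: with TPM as deposited 2 were higher and 27 lower, against 3.52% and 27.4%, and with the protein-coding factors 17 and 11, against 9.85% and 14.7%. When only transcripts with a mean of at least 5 TPM were tested on the rescaled values, 3 of 83 passed, against 9.79%: HNRNPU-201 (0.47, limma adjusted p = 0.0458) and HNRNPL-212 (0.38, adjusted p = 0.0477) were higher and the intron-retaining HNRNPC-210 (ENST00000554417.1; −0.40, adjusted p = 0.0480) lower.

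**Figure D3:**
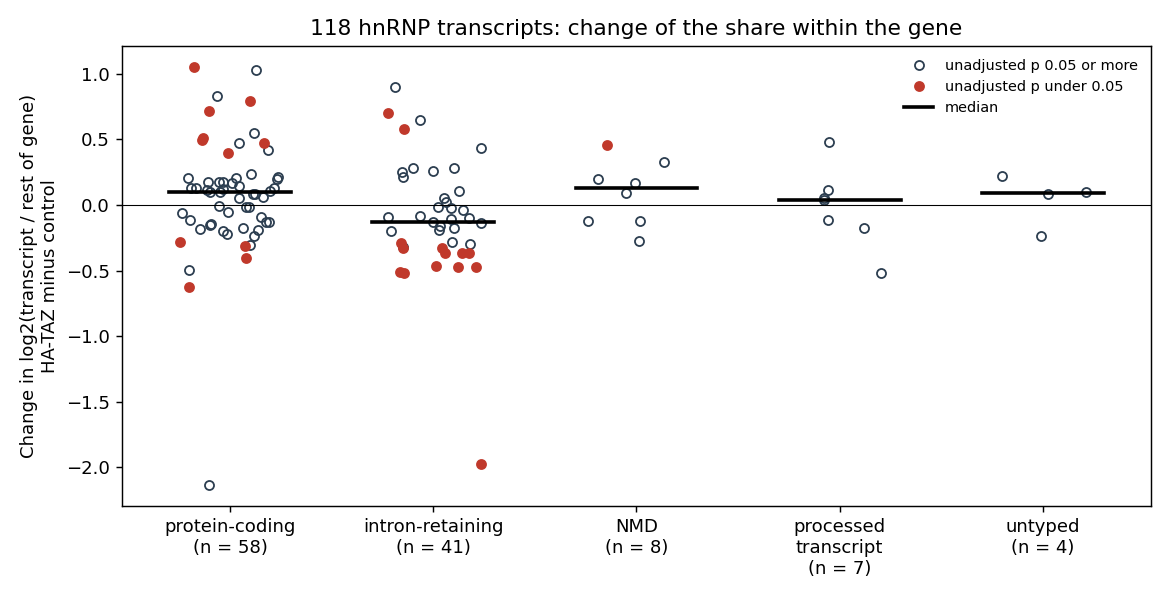
Change of each transcript's log2 ratio to the rest of its gene, HA-TAZ minus control (vertical axis), for 118 hnRNP transcripts by annotated type. Filled points have an unadjusted p under 0.05, and black bars are medians. Among the intron-retaining transcripts 12 filled points lie below 0 and 2 above, where 16.7% and 1.9% of all tested transcripts of this type do.

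Summed over all intron-retaining transcripts of a gene, the share was lower on average in HA-TAZ libraries for all 9 genes, and groups did not overlap for 6. Total RNA also holds unspliced RNA, and how far it contributed to these shares was not tested. A lower share was common in the data set: the fitted value was below 0 for 78.9% of all genes tested, and HA-TAZ libraries lay below all controls for 30.2%. HNRNPL was at 29.7, 31.5 and 28.2% in HA-TAZ and 39.1, 34.8 and 34.4% in control libraries. HNRNPK was at 22.4, 21.6 and 18.0% against 27.8, 25.2 and 23.4%. HNRNPA2B1 was at 11.3, 12.6 and 11.0% against 15.6, 14.2 and 13.5%. In these 3 genes each HA-TAZ library was below each control library.

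HNRNPC was at 9.07, 9.27 and 9.29% against 21.0, 11.3 and 11.3%, where control a holds the HNRNPC-206 signal given above. HNRNPD, with 1 such transcript, was at 1.99, 2.00 and 2.04% against 2.61, 2.60 and 2.85%. HNRNPU was at 24.9, 27.6 and 24.2% against 30.2, 31.6 and 30.7%, with types that rest on models of another length. These 3 did not overlap either. HNRNPH1 had the highest intron-retaining share, 49.4 ± 1.49% and 52.3 ± 1.55%, and overlapped, as did HNRNPM (8.06 ± 1.43% and 8.79 ± 1.57%) and HNRNPA1 (13.2 ± 0.820% and 13.5 ± 1.92%; SD, n = 3 each).

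**Figure D4:**
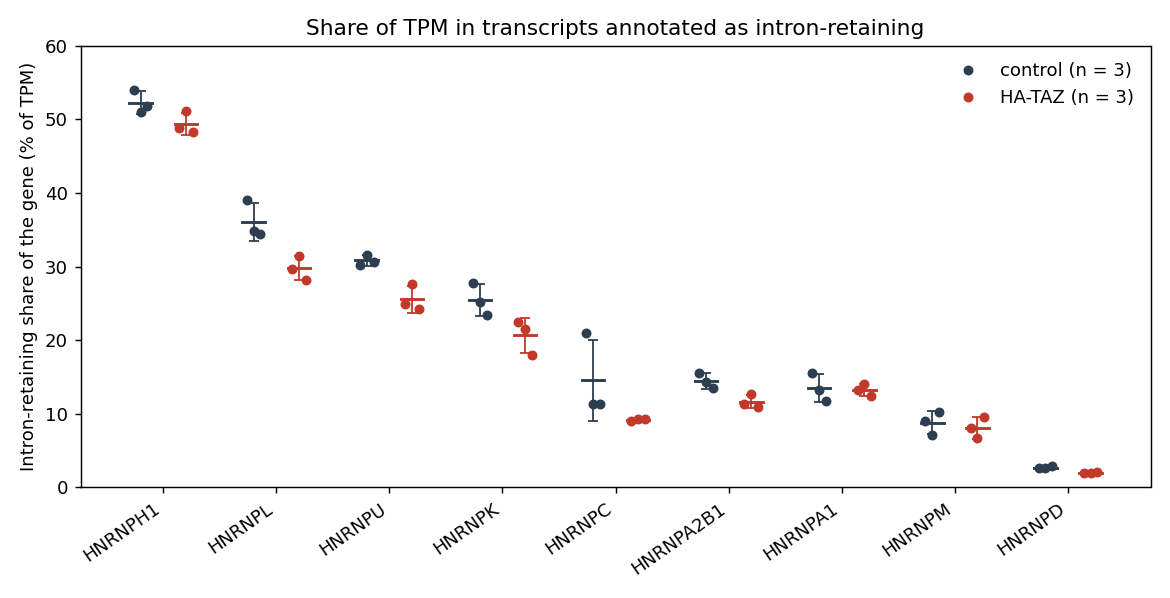
Share of each gene's TPM in transcripts annotated as intron-retaining (vertical axis, percent), with 1 point for each library, a bar for the mean and error lines of 1 SD (n = 3 in each group). HA-TAZ libraries lie below all control libraries in 6 genes and overlap them in HNRNPH1, HNRNPA1 and HNRNPM. The part of unspliced RNA in these shares was not tested.

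By limma on the log2 ratio of intron-retaining to other transcripts, 0 of the 9 passed, against 2.61% of 4910 genes. An unadjusted p under 0.05 was found for 6 of 9, all lower, against 28.2% of all genes and 26.6% that were lower. HNRNPL had a log2 ratio change of −0.41 (SE 0.12, limma adjusted p = 0.0781), HNRNPU −0.37 (SE 0.11, adjusted p = 0.0772) and HNRNPA2B1 −0.36 (SE 0.11, adjusted p = 0.0896). HNRNPK had −0.39, HNRNPC −0.67 and HNRNPD −0.37, with adjusted p-values of 0.105, 0.110 and 0.122. Without control a the HNRNPC value was −0.33. The median of the 9 was −0.37, against −0.22 over all genes.

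The call depended on how molecules were weighted. When each transcript's TPM was multiplied by its length before summing, so that longer transcripts weigh more, 5 of the 9 passed and all 5 were lower (HNRNPA2B1, HNRNPD, HNRNPK, HNRNPL and HNRNPU, limma adjusted p = 0.0203 to 0.0376). Of all genes, 21.9% passed in that way and 21.1% were lower. HNRNPL had −0.43 on that scale.

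The share of NMD transcripts could be tested in 6 genes, and 0 passed, against 0.369% of 2437 genes, with an unadjusted p under 0.05 in 1 of 6, against 15.4%. HNRNPA1, whose only such transcript is HNRNPA1-205, had 6.32 ± 1.29% in HA-TAZ and 4.61 ± 0.497% in control libraries (SD, n = 3 each; log2 ratio 0.45, limma unadjusted p = 0.0264, adjusted p = 0.280; 0.29 without HA-TAZ 3). The other 5 overlapped, with log2 ratio changes between −0.19 (HNRNPD) and 0.20 (HNRNPA2B1). HNRNPK and HNRNPH1, with the largest NMD shares, were at 9.26 and 9.75% in HA-TAZ and 9.98 and 9.99% in control libraries.

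The third question was the balance of protein isoforms at the 4 segments printed above, read as the share of TPM in complete models that include the segment. Segments were read for the hnRNP genes only, so how often segments of all genes do not overlap between the groups is unknown. In HNRNPC the C2 segment was in 34.9, 33.0 and 34.8% in HA-TAZ and 30.6, 30.1 and 31.7% in control libraries. The groups did not overlap, with means of 34.3 ± 1.05% and 30.8 ± 0.821%, a difference of 3.46 percentage points (exact two-sided permutation p = 0.1, the smallest that 3 against 3 allows). Leaving out any 1 library kept it between 3.10 and 4.07 points.

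In HNRNPM the segment was in 89.2, 89.7 and 85.8% against 85.1, 81.9 and 84.4%. The groups did not overlap here either, with a difference of 4.46 points (exact permutation p = 0.1). This rests on HNRNPM-201 and HNRNPM-202, at a mean of 47.2 TPM. With every protein-coding model counted, which adds the short and uneven HNRNPM-210, the difference was 15.4 points and the groups overlapped, at 64.8, 55.9 and 76.5% in HA-TAZ and 44.6, 42.6 and 63.9% in control libraries.

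The B1 exon of HNRNPA2B1 was in 4.83, 4.43 and 4.59% against 4.49, 3.63 and 4.52%, so A2 was the main form in all 6 libraries. The HNRNPD exon was in 21.0, 21.4 and 23.7% against 26.0, 23.2 and 24.1%. This rests on HNRNPD-201 and HNRNPD-203 alone, at a mean of 49.0 TPM. The main HNRNPD transcript has no model in GENCODE 29, and HNRNPD-208, at a mean of 46.1 TPM, was not counted either. Both the B1 exon and the HNRNPD exon overlapped between the groups, with exact permutation p-values of 0.3 and 0.2.

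**Figure D5:**
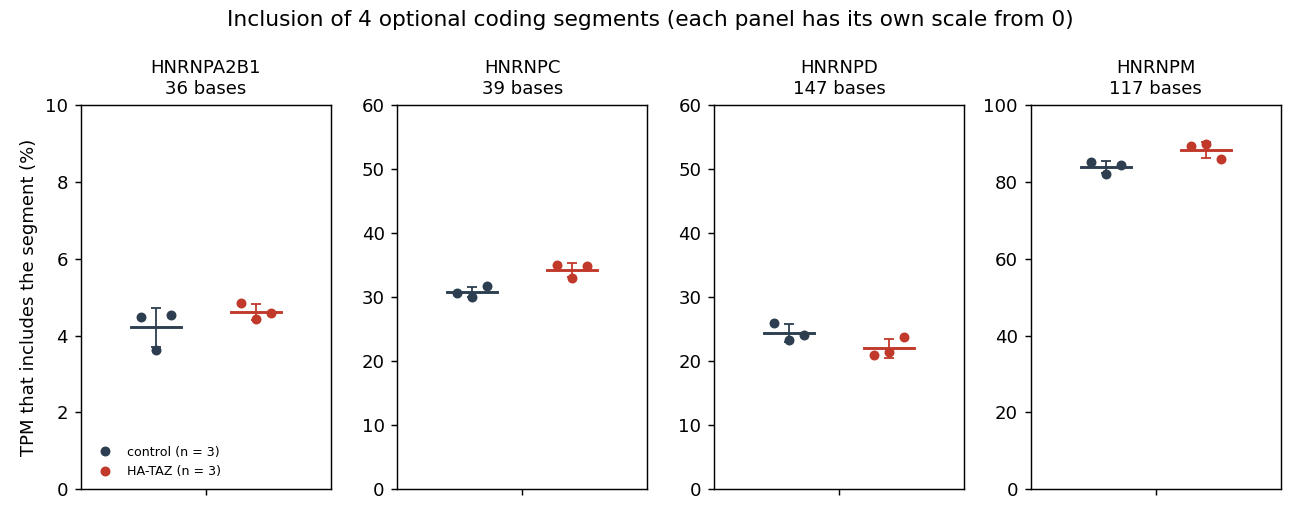
Share of TPM in complete transcript models that include the optional segment (vertical axis, percent, with its own scale in each panel) for 4 hnRNP genes; points are libraries, bars are means and error lines are 1 SD (n = 3 in each group). HA-TAZ and control libraries do not overlap for HNRNPC and HNRNPM and overlap for HNRNPA2B1 and HNRNPD. Segments of other genes were not measured.

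The authors' deposited table holds their own Wald test for each transcript and lists statistics for 141 hnRNP transcripts. In the authors' deposited table, 12 of these had a q-value under 0.05, of which 11 were higher and 1 lower in HA-TAZ. That is 8.51%, against 5.68% of all 109487 transcripts there, of which 4.08% were higher and 1.6% lower. Each of the 9 genes had at least 1, out of 7 to 34 listed transcripts per gene. The share of all genes with at least 1 was not computed. In that table the effects are natural logs with HA-TAZ over control, on scaled estimated counts, so they are not set against the log2 values above. Their direction rests on that scaling, and in TPM as deposited not all of the 11 had a higher mean in HA-TAZ.

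HNRNPU-201 led in the authors' deposited table with an effect of 0.347 (q = 1.2e-05). It was followed there by HNRNPK-205 with 0.237 (q = 0.00017), HNRNPL-212 with 0.287 (q = 0.0011), HNRNPK-202 with 0.192 (q = 0.0011) and HNRNPL-210 with 0.325 (q = 0.0012). HNRNPA1-205, the NMD transcript, had 0.329 (q = 0.0020) in the authors' deposited table, and HNRNPC-211, with the C2 segment, 0.366 (q = 0.0063). The same table listed HNRNPC-209 (0.462), HNRNPA2B1-201, which encodes B1 (0.217), HNRNPM-201 (0.170) and the intron-retaining HNRNPH1-222 (0.330) with q-values of 0.0071 to 0.044. The only lower one in the authors' deposited table was the intron-retaining HNRNPD-210 (ENST00000514325.1), at −0.231 (q = 0.029). Of the 12, 9 were typed protein-coding, as were 73 of the 141 listed hnRNP transcripts.

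The precision of single transcripts varied. In the authors' deposited table each of these transcripts has a mean natural log of scaled estimated counts. Taken out of the log, the means in that table added up to 324603 over the hnRNP transcripts, from 8861 for HNRNPM to 57268 for HNRNPU. Repeated quantification of the same reads, given there as a variance, moved 32 of the 141 transcripts by an SD of more than 0.5 on the natural log scale, 11 of 34 in HNRNPH1 and 9 of 29 in HNRNPC. None of the HNRNPU or HNRNPA2B1 transcripts moved by that much.

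Other genes share sequence with the members. Listed pseudogene copies of HNRNPA1 numbered 83 and summed to 19.6 ± 3.44 TPM against 29.5 ± 3.43 TPM in the controls, 3.56% of the HNRNPA1 level, without overlap. HNRNPC had 11 copies at 1.66 and 2.76 TPM. HNRNPU-AS1, an antisense gene at the HNRNPU locus, was at 46.7, 51.7 and 44.3 TPM against 110.7, 70.5 and 65.8 TPM, lower in every HA-TAZ library (log2 fold change −0.45, limma adjusted p = 0.117). Whether quantification used the strand is not given in the sources used here, and the part of these genes in the hnRNP values was not tested. The 3 genes whose profile over the 6 libraries was most like the members' mean were TARDBP, an hnRNP-like RNA-binding protein (Pearson r = 0.991), RP5-994D16.3 (0.990) and ERCC6L (0.989). They were picked as the highest of many genes over only 6 libraries that share their scaling, so the values are a description.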

How the data were processed

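Total RNA of 6 KMS27 libraries was quantified per transcript. Per the submitters' processing notes, kallisto 0.46.0, sleuth 0.30.0 and GRCh37 were used, and the annotation release is not given in the sources used here. The authors deposited TPM, with the same sum in each library, and, per the file headers, sleuth p-values and q-values, effects and means as natural log values, and variances as a score. TPM was summed per Ensembl gene ID. Libraries were divided by median-of-ratios factors over 21512 genes. Levels with a mean of at least 1 TPM were tested with limma 3.58.1 (R 4.3.3) on log2(scaled TPM + 1) with a trend, two-sided, with Benjamini-Hochberg adjustment over all features and a threshold of 0.05. Shares were tested on log2((part + 1)/(rest + 1)). The fits were tested on simulated data.

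Types and segments came from GENCODE 29 by transcript ID: 164 of 169 member transcripts had a type and 46 the same version. Lengths implied by the deposited values could be measured for 97, of which 9 differed, all 8 of HNRNPU among them. Optional segments of 1 gene are not reported here. Named transcripts held at least 5% of their gene in either group or passed a test. Members and lists were chosen with earlier results of these data known. Alternatives were other scalings, pseudocounts, filters, types, weights and leaving out each library.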

Additional observations from a re-analysis of the deposited data

How the results depend on the processing

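No paired analysis was possible because the control columns could not be tied to numbered wild type samples. Counts of members called stayed at 0 in the other alternatives run for each fit, except that a mean of at least 5 TPM gave 1 gene total and 3 transcript levels, and weighting by length gave 5 intron-retaining shares; the cause was not tested. With TPM as deposited, log2 fold changes were −0.20 for HNRNPC, −0.20 for HNRNPA2B1, −0.29 for HNRNPA1, −0.24 for HNRNPD, −0.16 for HNRNPU, −0.14 for HNRNPK and −0.28 for HNRNPH1, opposite to the rescaled values. Factors from protein-coding genes gave −0.062 for HNRNPA1, −0.017 for HNRNPD and −0.054 for HNRNPH1, also opposite. Among protein-coding transcripts alone, log2 ratios changed sign to −0.13 for HNRNPA2B1-202 (ENST00000356674.7), −0.039 for HNRNPK-202 (ENST00000360384.5), −0.022 for HNRNPH1-203 (ENST00000393432.4), −0.025 for HNRNPK-206 (ENST00000457156.1), −0.033 for HNRNPU-210 (ENST00000483966.1), −0.083 for HNRNPC-205 (ENST00000553300.1) and −0.078 for HNRNPL-212 (ENST00000601449.1). Weighted by length, the intron-retaining share of HNRNPA1 was at 0.015 and the NMD share of HNRNPH1 at 0.014, with the sign changed. Leaving out 1 library at a time, gene totals ranged from −0.18 to 0.045 for HNRNPM, −0.044 to 0.059 for HNRNPA1 and −0.022 to 0.072 for HNRNPH1. Share ratios ranged from −0.094 to 0.34 for HNRNPU-210, −0.25 to 0.062 for HNRNPA1-212, −0.027 to 0.16 for HNRNPC-205 and −0.27 to 0.0069 for HNRNPC-230. Intron-retaining shares ranged from −0.27 to 0.021 for HNRNPM and −0.13 to 0.098 for HNRNPA1, and the NMD share of HNRNPH1 from −0.10 to 0.033. With 3 libraries in a group, an exact permutation test cannot go below 0.1. The depth of each library was unknown, and repeated quantification moved 32 of 141 transcripts by an SD of more than 0.5 on the natural log scale in the authors' deposited table.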
